A study of Mus musculus with 12 samples.

Results

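The 9 genes described here are proneural transcription factors and members of the Notch signalling system: Neurog1, Neurog2, Neurod1, Neurod4, Dll1, Dll3, Hes1, Hes5 and Hes6. They were chosen by name, with earlier results of these data known. Their reads were taken where the deposited gene field equalled the symbol, the transcript class was mRNA and the quality tag was PASS. All 9 had reads, 1833 in all, out of 14042 genes with at least 1 kept read, and all 9 passed the minimum of 30 reads over the libraries that left 9309 genes for testing. The cells were P19, an established mouse embryonal carcinoma line. D0 libraries came from undifferentiated cells without retinoic acid, and D2, D4 and D6 libraries from cells kept for 2, 4 or 6 days in NDiff 227 medium with 500 nM retinoic acid. Each of the 4 days had 3 biological replicates, giving 12 direct RNA libraries in which 1 nanopore read is 1 native poly(A) RNA and carries its own tail length. All libraries came from 1 cell line in culture, without tissue around it.

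In the embryonic nervous system, proneural factors of the basic helix-loop-helix (bHLH) class bind E-box motifs with E proteins as partners and switch on neuronal genes, among them the Notch ligands Dll1 and Dll3. Dll1 on one cell activates Notch receptors on its neighbour, where the cleaved receptor joins the DNA-binding protein Rbpj and induces the repressors Hes1 and Hes5. These repressors hold down the proneural genes, so that the neighbour stays a progenitor, a process known as lateral inhibition.

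The libraries held between 120326 (D2 replicate 1) and 613756 (D0 replicate 2) kept mRNA reads. Each of the 13 sequencing runs held 1 day, so day and run cannot be told apart, and 2 of the 4 D6 runs carry no day in their name. The names of the D0 runs carry the mark D2, and libraries were grouped by the sample labels. In the marker lists, Pou5f1, a pluripotency factor, had between 664 and 1027 reads in the D0 libraries and 1 read in all D6 libraries together. The summed level of 13 neuronal markers was 609.1 to 661.2 CPM (reads for each 1000000 of the library size, after trimmed-mean scaling) on D0, 368.5 to 593.9 on D2, 2031.9 to 2311.8 on D4 and 3419.0 to 3659.5 on D6, and that of 7 neural progenitor markers went from 564.7 to 613.8 on D0 up to 2487.8 to 2835.6 on D6. Most of the progenitor sum is Vim (mean 377.2 CPM on D0 and 1786.5 on D6) and Fabp7 (3.42 and 556.7). The means of Sox1, Pax6 and Nes were 10.8, 30.6 and 25.9 CPM on D0, 83.3, 119.4 and 100.4 on D2 and 29.4, 83.0 and 60.6 on D6. The 9 pluripotency markers, Pou5f1 among them, summed to 1967.0 to 2267.4 CPM on D0 and 181.4 to 228.6 on D6. Most of the D6 sum is Sox2 (mean 263.3 CPM on D0 and 199.2 on D6), and Esrrb went from 0.70 to 8.31. Astrocyte markers summed to at most 78.8 CPM, oligodendrocyte markers to 37.9, mesoderm and muscle markers to 24.1 and endoderm markers to 7.8. Among them Slc1a3 had a mean of 62.6 CPM on D0 and 19.8 on D6. The means on these days were 24.2 and 30.9 for Mbp and 19.9 and 1.24 for Acta2. Aqp4, S100b, Sox17, T and Sox10 had no read. In bulk RNA, more cells of a type and more RNA per cell cannot be told apart, and the part of the neuronal and progenitor markers in the results below was not tested.

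The first question was when each gene appeared. Because the genes were chosen with earlier results of these data known, their counts beside the background are descriptions and no test. A limma-voom fit over all genes called 5 of the 9 higher and 0 lower on D2 than on D0 (background 4.48% of tested genes higher and 6.32% lower), 8 higher and 0 lower on D4 (12.6% and 12.7%), and 8 higher and 0 lower on D6 (19.4% and 18.2%). The median log2 fold change of the 9 was 2.87 on D2, 3.20 on D4 and 3.49 on D6, where the median over all tested genes was -0.053, -0.002 and 0.017. With genes that lacked reads on a day placed at their bound it was 1.69, 3.15 and 3.16. Neurog2, Neurod1 and Neurod4 had fewer than 30 reads outside D6, so they were tested only through the day on which they were highest. Of the other 6 genes 5 were higher on D6, beside 18.0% of the 8402 tested genes with at least 30 reads outside D6. Together the 9 genes made up 91.8 ± 21.2 CPM on D0, 344.6 ± 47.5 on D2, 621.4 ± 14.0 on D4 and 735.7 ± 103.1 on D6 (mean ± SD, n = 3). CPM is not divided by transcript length, and each gene is compared with itself across days.

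**Figure D1:**
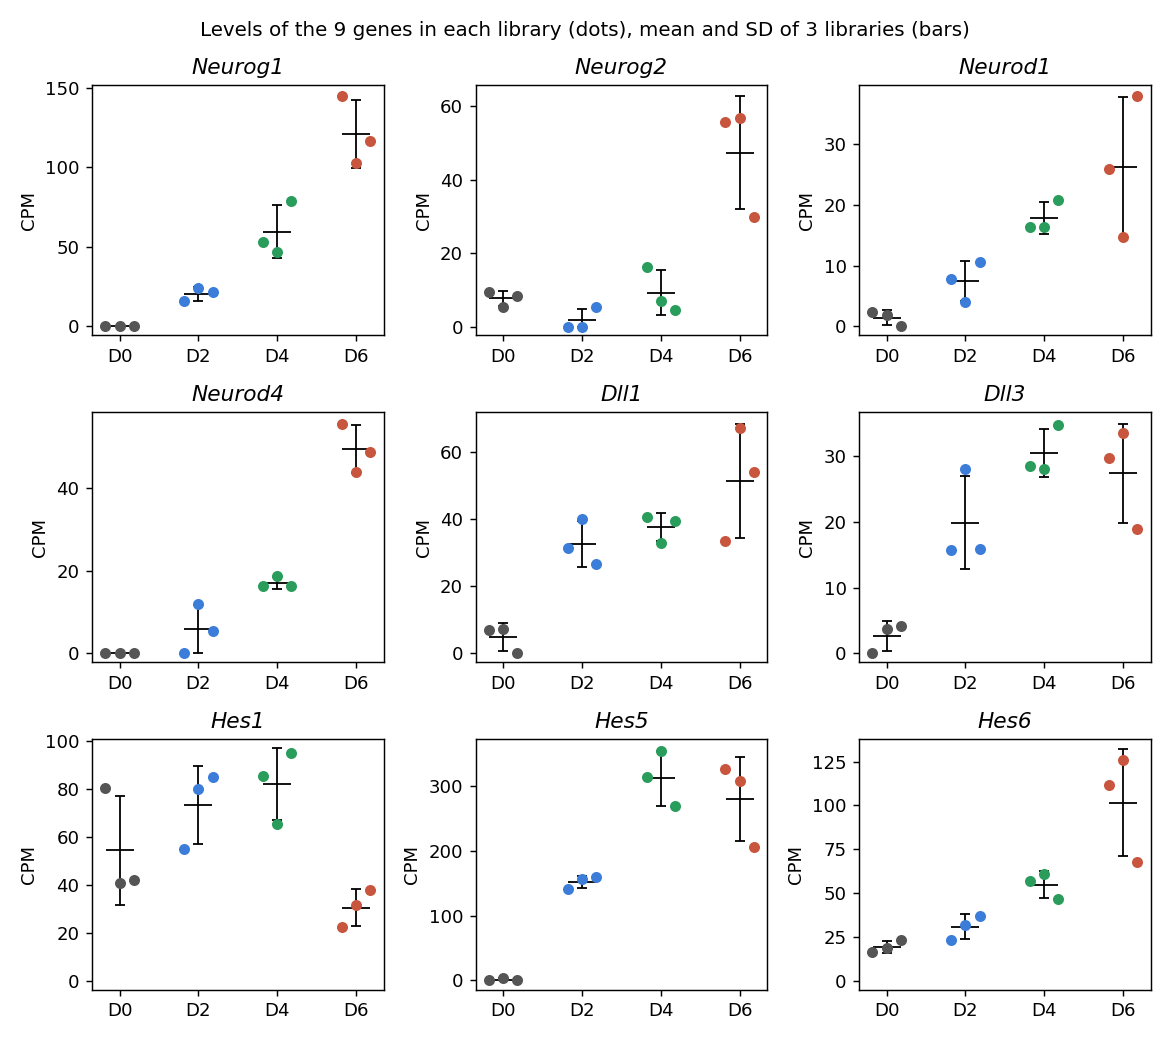
Level of each gene (CPM, linear axes from 0 that differ between panels) in each of the 12 libraries by day; dots are libraries and black bars are the mean and SD of 3 libraries, drawn down to 0 at most. Neurog1 and Neurod4 have no read on D0, Hes5 stays above 141 from D2 on, Neurog2 is highest on D6, and Hes1 is lowest on D6.

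Neurog1 and Neurog2, the neurogenins, are proneural factors that start neuronal differentiation. Neurog1 (ENSMUST00000058475.5, mm10 chromosome 13, 56250478 to 56252163, minus strand, 1 exon) had 0, 0 and 0 reads in D0 replicates 1 to 3, then 2, 6 and 4 on D2, 13, 20 and 34 on D4, and 39, 49 and 43 on D6. No library of one day overlapped with a library of another on the scaled level. Its level was 20.3 ± 4.3 CPM on D2, 59.6 ± 17.0 on D4 and 121.3 ± 21.4 on D6 (mean ± SD, n = 3). Against a floor of 3 reads per library, which is 5.56 to 7.11 CPM on D0, Neurog1 was at least 3.22-fold higher on D2, 9.43-fold on D4 and 19.2-fold on D6 (limma-voom adjusted p = 5.03e-06, 6.78e-11 and 9.45e-14). Thinning every library to the smallest raised the adjusted p on D2 to 0.16.

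Neurog2 (ENSMUST00000029587.8, chromosome 3, 127633135 to 127635631, plus strand, 2 exons) had reads in undifferentiated cells, 4, 3 and 4 reads on D0. It had 0, 0 and 1 read on D2, 4, 3 and 2 on D4, and 15, 27 and 11 on D6. The D6 libraries lay above all the others, while D0 and D4 overlapped. The level was 7.81 ± 2.03 CPM on D0, 1.77 ± 3.07 on D2, 9.33 ± 6.17 on D4 and 47.4 ± 15.2 on D6 (mean ± SD, n = 3). On D6 the log2 fold change was 2.46 ± 0.46 (SE; limma-voom adjusted p = 1.38e-05) against D0. The ratio of D2 to D0 was 0.231, with a counting interval of 0.00538 to 1.59 (95%, exact), so a fall on D2 was not detectable at this depth (limma-voom adjusted p = 0.405).

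Neurod1 and Neurod4 are bHLH factors that act after the neurogenins in the differentiating neuron. Neurod1 (ENSMUST00000041099.4, chromosome 2, 79452521 to 79456751, minus strand, 2 exons) had 1, 1 and 0 reads on D0, 1, 1 and 2 on D2, 4, 7 and 9 on D4, and 7, 7 and 14 on D6. On D4 the ratio to D0 was 13.0 with a counting interval of 3.17 to 115, and on D6 it was 18.0 with an interval of 4.55 to 156 (limma-voom adjusted p = 0.000385 and 3.41e-05). D0 and D2 were both within 3 reads per library, so no fold is given for D2 (limma-voom adjusted p = 0.0966, and 0.0283 with no filter on low counts).

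Neurod4 (ENSMUST00000061571.4, chromosome 10, 130268152 to 130280240, minus strand, 2 exons) had no read in any D0 library, 0, 3 and 1 on D2, 4, 8 and 7 on D4, and 15, 21 and 18 on D6. Every D4 library was above every D2 library and every D6 library above every D4 library. It was at least 2.71-fold higher on D4 and at least 7.83-fold higher on D6 than on D0 (limma-voom adjusted p = 2.25e-06 and 8.93e-11). The call on D2 (limma-voom adjusted p = 0.0109) rested on 4 reads, and the adjusted p rose to 0.0637 without D0 replicate 2 and to 0.123 without D2 replicate 2.

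Dll1 and Dll3 encode Delta ligands, of which Dll1 activates Notch on the neighbouring cell and Dll3 acts mainly inside the cell that makes it. Dll1 (ENSMUST00000014917.7, chromosome 17, 15367354 to 15375976, minus strand, 11 exons) had 3, 4 and 0 reads on D0, 4, 10 and 5 on D2, 10, 14 and 17 on D4, and 9, 32 and 20 on D6. All libraries from D2 on were above all D0 libraries, and D2, D4 and D6 overlapped with each other. Its level went from 4.84 ± 4.19 CPM on D0 to 32.7 ± 6.9 on D2, 37.7 ± 4.3 on D4 and 51.6 ± 17.0 on D6 (mean ± SD, n = 3). The log2 fold change against D0 was 3.10 ± 0.65 on D2, 3.20 ± 0.60 on D4 and 3.69 ± 0.59 on D6 (SE; limma-voom adjusted p = 0.000337, 2.27e-05 and 5.01e-07). These values were 2.12, 2.23 and 2.69 without D0 replicate 3, which holds no Dll1 read, and remained called. With all libraries thinned to the smallest, the adjusted p of Dll1 was 0.146 on D2 and 0.103 on D4.

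Dll3 (ENSMUST00000108315.3, chromosome 7, 28293553 to 28302238, minus strand, 9 exons) had 0, 2 and 2 reads on D0, 2, 7 and 3 on D2, 7, 12 and 15 on D4, and 8, 16 and 7 on D6. D0 was below every later library. The log2 fold change against D0 was 2.87 ± 0.70 on D2, 3.34 ± 0.63 on D4 and 3.16 ± 0.63 on D6 (SE; limma-voom adjusted p = 0.0027, 2.46e-05 and 4.16e-05). As D0 held 4 Dll3 reads, the ratio of levels was wide, with 95% counting intervals of 2.31 to 32.5 on D2, 3.95 to 43 on D4 and 3.53 to 39 on D6. Without D0 replicate 1 the log2 fold change was 2.26, 2.73 and 2.52, still called, and with thinned libraries the adjusted p of Dll3 was 0.422 on D2 and 0.262 on D4. Neither ligand passed the test between D2 and D4 or between D4 and D6 (limma-voom adjusted p between 0.373 and 0.941).

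Hes5, a repressor induced by Notch, had 2 reads in all undifferentiated libraries together and rose on each later day against D0. Hes5 (ENSMUST00000049621.6, chromosome 4, 154960923 to 154962371, plus strand, 3 exons) had 0, 2 and 0 reads on D0, 18, 39 and 30 on D2, 77, 151 and 116 on D4, and 88, 147 and 76 on D6. The D2 libraries stood well above D0 and below D4, and D4 and D6 overlapped. The level was 152.3 ± 9.8 CPM on D2, 312.4 ± 42.5 on D4 and 280.2 ± 65.1 on D6, from 1.24 ± 2.14 on D0 (mean ± SD, n = 3). The ratio to D0 was 111 on D2 with a counting interval of 29.7 to 929, 224 on D4 (61.6 to 1860) and 200 on D6 (55 to 1660), with limma-voom adjusted p-values of 3.6e-11, 3.89e-14 and 6.5e-14. Among the D0 libraries only replicate 2 held Hes5 reads, and without it the log2 fold change on D6 went from 7.26 to 7.93, on D4 from 7.44 to 8.12 and on D2 from 6.45 to 7.13.

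The Hes5 start site is shown for its Rbpj cores, the motif through which the cleaved receptor and Rbpj reach a target gene. All of the 9 genes but Hes1 had an entry among the RefSeq start sites of GRCm38.p6 used here. The 250 bases before the Hes5 start site lie at chr4:154960673-154960922 on the plus strand, and capitals mark GTGGGAA or its reverse complement, which begin 226 and 83 bases before the start site.

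Hes5: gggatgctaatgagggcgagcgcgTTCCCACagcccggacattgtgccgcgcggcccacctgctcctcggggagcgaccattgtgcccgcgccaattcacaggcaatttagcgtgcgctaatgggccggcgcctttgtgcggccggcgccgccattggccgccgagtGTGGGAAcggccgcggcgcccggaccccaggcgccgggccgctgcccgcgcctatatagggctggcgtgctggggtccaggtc

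Searched on both strands in windows of 300 bases (250 before and 50 after the start site), GTGGGAA was found in 6.38% of 32851 start sites, and among the 8 genes searched, which leave out Hes1, it was found at Hes5 alone. The Hes5 window also holds 1 E-box, 194 bases before the start site. The E-box CANNTG was found in 72.3% of all windows and the N-box CACNAG, a motif bound by Hes repressors, in 42.5%. These matches are descriptions of the letters in the window, not of binding.

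Hes1, the other Notch-induced repressor, had reads in every library. Hes1 (ENSMUST00000023171.7, chromosome 16, 30065340 to 30067796, plus strand, 4 exons) had 34, 22 and 20 reads on D0, 7, 20 and 16 on D2, 21, 28 and 41 on D4, and 6, 15 and 14 on D6. D0, D2 and D4 overlapped on the scaled level, and the D6 libraries were below all the others. The level was 54.4 ± 22.6 CPM on D0, 73.4 ± 16.2 on D2, 82.1 ± 15.0 on D4 and 30.5 ± 7.9 on D6 (mean ± SD, n = 3). Hes1 fell between D4 and D6 by 1.35 ± 0.31 on the log2 scale (SE; limma-voom adjusted p = 0.00171), and with thinned libraries the log2 fold change was -1.76 (adjusted p = 0.0648).

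Against D0, Hes1 passed the test on D4 only, with a log2 fold change of 0.67 ± 0.25 (SE; limma-voom adjusted p = 0.0371). This call was lost in 9 of 25 alternatives, whose adjusted p ranged from 0.00641 to 0.894 over all 25. It was lost without D0 replicate 2 (adjusted p = 0.207), D0 replicate 3 (0.134), D4 replicate 1 (0.0763) or D4 replicate 3 (0.169). On D6 the log2 fold change of Hes1 was -0.68 ± 0.31 (SE; limma-voom adjusted p = 0.0804), and it was -0.88 with an adjusted p of 0.0353 without D0 replicate 2 and -1.65 with an adjusted p of 0.0306 when libraries were thinned.

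Hes6, a relative of the Hes repressors that favours neuronal differentiation and counteracts Hes1, first passed the test on D4. Its reads fell on 3 transcripts that lie within chromosome 1 from 91411483 to 91413222 on the minus strand, 149 on the coding one (ENSMUST00000086851.1, 4 exons) and 43 and 29 on transcripts annotated as retained introns, and these were summed. Hes6 had 7, 10 and 11 reads on D0, 3, 8 and 7 on D2, 14, 26 and 20 on D4, and 30, 60 and 25 on D6. On the scaled level every library was above those of the day before. The level was 19.4 ± 3.3 CPM on D0, 30.9 ± 6.9 on D2, 54.8 ± 7.6 on D4 and 101.6 ± 30.3 on D6 (mean ± SD, n = 3). The log2 fold change of Hes6 against D0 was 0.75 ± 0.44 on D2, 1.45 ± 0.34 on D4 and 2.31 ± 0.32 on D6 (SE; limma-voom adjusted p = 0.306, 0.000667 and 1.32e-08), with an adjusted p of 0.2 on D4 when libraries were thinned. The 3 transcripts overlap, and a mapping quality under 10 was found for 25.5%, 62.8% and 100% of their reads.

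The RefSeq start site at the first base of the coding Hes6 transcript is shown beside Hes5. It holds 1 E-box, 2 N-boxes and no Rbpj core, where the Hes5 window holds no N-box. The 250 bases before this site lie at chr1:91413223-91413472 on the minus strand, and capitals mark the E-box that begins 150 bases before it. A second Hes6 start site in RefSeq, whose sequence is not shown, holds 3 E-boxes, no N-box and no Rbpj core.

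Hes6: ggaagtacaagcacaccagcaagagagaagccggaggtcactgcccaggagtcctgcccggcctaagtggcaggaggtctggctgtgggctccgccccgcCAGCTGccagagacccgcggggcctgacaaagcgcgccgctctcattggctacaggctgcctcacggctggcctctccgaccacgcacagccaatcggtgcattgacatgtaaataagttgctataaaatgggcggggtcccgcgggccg

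**Figure D2:**
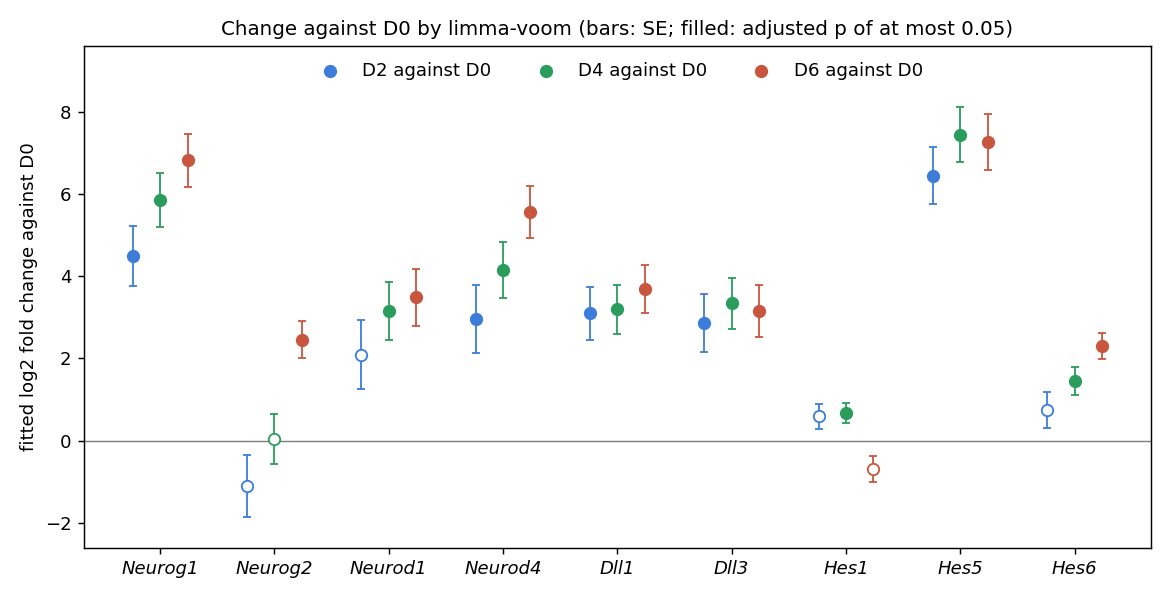
Fitted log2 fold change of each gene on D2, D4 and D6 against D0 by limma-voom over 12 libraries; bars are the SE and filled dots have an adjusted p of at most 0.05. Hes5 has the highest values, and Neurog2 and Hes6 pass the test later than Hes5 and Dll1. Hes1 lies at 0.59 on D2, 0.67 on D4 (filled) and -0.68 on D6. Values of Neurog1 and Neurod4, which have no D0 read, depend on the prior count.

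The next comparison asked what changed within the differentiating cells. From D2 to D4, 1 of the 9 genes was called higher and 0 lower (background 2.01% higher and 1.02% lower). It was Hes5, with a log2 fold change of 0.99 ± 0.20 (SE; limma-voom adjusted p = 0.000844). By limma-trend the log2 fold change of Hes5 was 1.02 (adjusted p = 0.172), and with thinned libraries it was 0.60 (limma-voom adjusted p = 0.296). Neurog1 had a log2 fold change of 1.35 ± 0.43 (SE; limma-voom adjusted p = 0.0699) and passed without D4 replicate 2 (log2 fold change 1.54, adjusted p = 0.0397), which made the count 2.

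From D4 to D6, 4 of the 9 were called higher and 1 lower (background 4.44% higher and 3.92% lower). Of those called higher, Neurog2 and Neurod4 reached the minimum of 30 reads only through D6, which can raise this count. Neurog1 and Hes6 reached it without D6. The share among genes with at least 30 reads outside D6 was not counted for this comparison. Neurog2 had the highest value, with a log2 fold change of 2.42 ± 0.49 (SE; limma-voom adjusted p = 0.000319). Neurod4 rose by 1.42 ± 0.37 (adjusted p = 0.00645), Neurog1 by 0.97 ± 0.23 (0.00277) and Hes6 by 0.86 ± 0.25 (0.0179; log2 fold changes with SE, all by limma-voom). The gene that fell was Hes1, given above. For Hes5 the log2 fold change was -0.18 ± 0.15, for Dll1 0.49 ± 0.31, for Dll3 -0.18 ± 0.36 and for Neurod1 0.34 ± 0.42 (SE), and none of these passed.

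Some of the calls between D4 and D6 rested on few libraries. Hes6 lost its call without D4 replicate 3 (log2 fold change 0.68, limma-voom adjusted p = 0.125), without D6 replicate 2 (0.59, adjusted p = 0.238) and with reads of mapping quality of at least 10 (0.42, adjusted p = 0.5). Neurog1 lost it without D4 replicate 2 (0.74, adjusted p = 0.0822). Without the D6 runs that name no day, Hes6 had 0.70 (adjusted p = 0.181) and Neurog1 0.72 (adjusted p = 0.107). By limma-trend on log2(CPM + 1), only Hes1 stayed called in this comparison. The log2 fold changes by limma-trend were 2.33 for Neurog2 (adjusted p = 0.119), 1.48 for Neurod4 (0.404), 1.035 for Neurog1 (0.255) and 0.84 for Hes6 (0.179).

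The related repressors Hes5 and Hes1 were also set against each other. Of the Hes1 and Hes5 reads of a library, Hes5 made up 0%, 8.33% and 0% on D0, 72.0%, 66.1% and 65.2% on D2, 78.6%, 84.4% and 73.9% on D4, and 93.6%, 90.7% and 84.4% on D6. D0 stood apart from all other libraries, and the highest D4 and lowest D6 library were both at 84.4%. The day means were 2.78% ± 4.81 on D0, 67.8% ± 3.7 on D2, 78.9% ± 5.3 on D4 and 89.6% ± 4.7 on D6 (SD, n = 3). The log2 ratio of Hes5 to Hes1 reads (0.5 reads added to each) was higher on D6 than on D0 (two-sided exact permutation p = 0.1, the smallest that 3 against 3 libraries allow), and the size of this difference is not given because 2 of the 3 D0 libraries had no Hes5 read. It was 1.22 higher on D6 than on D4 (exact permutation p = 0.2). These are shares of reads and not divided by transcript length, and intervals in the plot of shares cover counting error only.

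For the neurogenins, Neurog1 held most reads from D2 on. Neurog1 made up 0% of the Neurog1 and Neurog2 reads in each D0 library, which held 3 or 4 such reads. It made up 100%, 100% and 80% on D2, 76.5%, 87.0% and 94.4% on D4, and 72.2%, 64.5% and 79.6% on D6. D2 rests on 2 to 6 reads per library, and D4 and D6 overlapped.

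**Figure D3:**
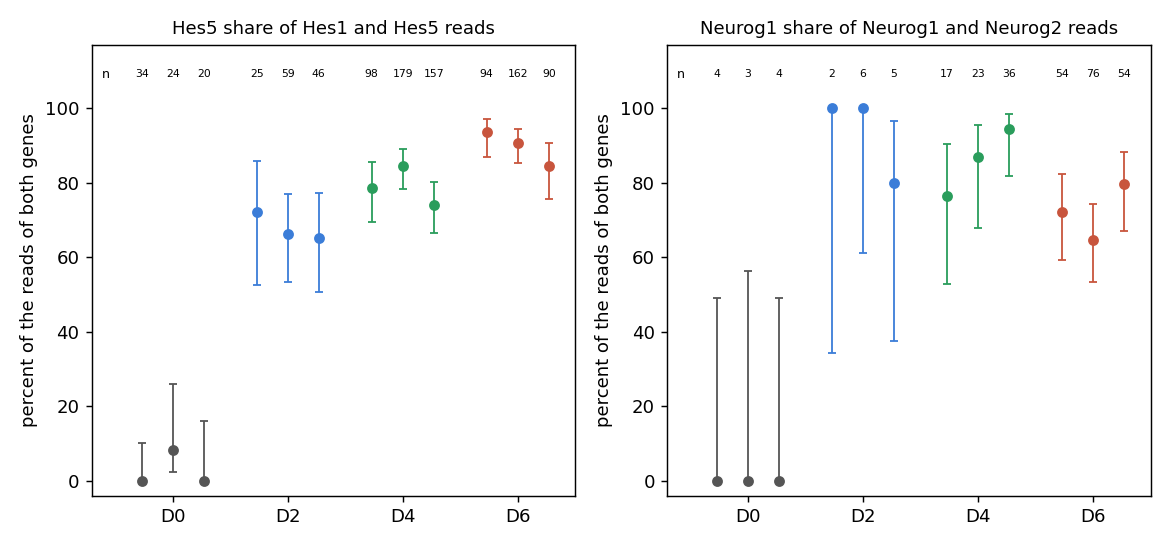
Share of Hes5 among Hes1 and Hes5 reads (left) and of Neurog1 among Neurog1 and Neurog2 reads (right), in percent, for each library by day; bars are 95% Wilson intervals and n is the number of reads of both genes. The Hes5 share is at most 8.33% on D0 and at least 65.2% from D2 on, and the Neurog1 share on D2 has wide intervals.

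The other Notch pathway genes were described from a list of 42, of which 41 had reads and 33 were tested. The list was chosen with earlier results of these data known, so its counts are descriptions. On D2, 2 were called higher and 1 lower than on D0, on D4 6 and 3, and on D6 10 and 2. Of all tested genes, 4.48%, 12.6% and 19.4% were higher on these days and 6.32%, 12.7% and 18.2% lower. The median log2 fold change of the list was 0.01, 0.20 and 0.33 on the 3 days, and 0, 0.05 and 0.33 with genes that lacked reads on a day placed at their bound. Notch4, Jag1 and Dner had fewer than 30 reads outside D6, and of the other 30 genes 9 were higher and 2 lower on D6.

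On D6 the 4 list genes with the largest fitted rise were Dner, Notch1, Mfng and Nrarp. Dner, a neuronal transmembrane protein with Delta-like repeats, just reached the minimum of 30 reads, with 0 on D0 and 25 on D6, at least 3.21-fold higher. Its first place depends on the prior count, and at this bound it lies below Nrarp and below Maml3, a coactivator, and Hey1, a Notch target, which rose by 1.95 ± 0.52 and 1.72 ± 0.37 on the log2 scale (SE; limma-voom adjusted p = 0.00197 and 0.000134). Notch1, a receptor, had 5, 5 and 1 reads on D0 and 14, 36 and 24 on D6, a log2 fold change of 3.17 ± 0.48 (SE; limma-voom adjusted p = 1.95e-07). The other receptors, Notch2, Notch3 and Notch4, did not pass (log2 fold changes of -0.47, -0.53 and 1.08). Mfng, a glycosyltransferase that modifies Notch, rose by 3.09 ± 0.46 (adjusted p = 1.37e-07) and Nrarp, a Notch target that limits the signal, by 2.08 ± 0.37 (adjusted p = 5.43e-06). The list genes that fell were Psen2, a subunit of the protease that releases the Notch intracellular domain (-1.94 ± 0.66, adjusted p = 0.0153), and Hdac1, a histone deacetylase (-0.40 ± 0.16, adjusted p = 0.0388; log2 fold changes with SE by limma-voom).

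By role, on D6 1 of 4 receptors, 1 of 3 tested other ligands, 2 of 12 processing genes, 3 of 7 nuclear effectors, 2 of 3 other targets and 1 of 4 negative regulators rose, and 1 processing gene and 1 nuclear effector fell. The counts of this list depended on single libraries. The 12 calls on D6 went to 6 without D6 replicate 2, the 9 calls on D4 to 3 without D0 replicate 2 and to 5 without D4 replicate 1, and the 3 calls on D2 to 1 without D0 replicate 2, D0 replicate 3, D2 replicate 2 or D2 replicate 3. Scaling by library total alone put the median log2 fold change of all genes at 0.13, 0.12 and 0.26 on D2, D4 and D6, turned the direction of no call among the 9 genes, and split the list 8 higher and 1 lower on D4 and 14 higher and 1 lower on D6, where with the same scaling 16.5% and 27.8% of all tested genes were higher and 9.89% and 12.5% lower.

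**Figure D4:**
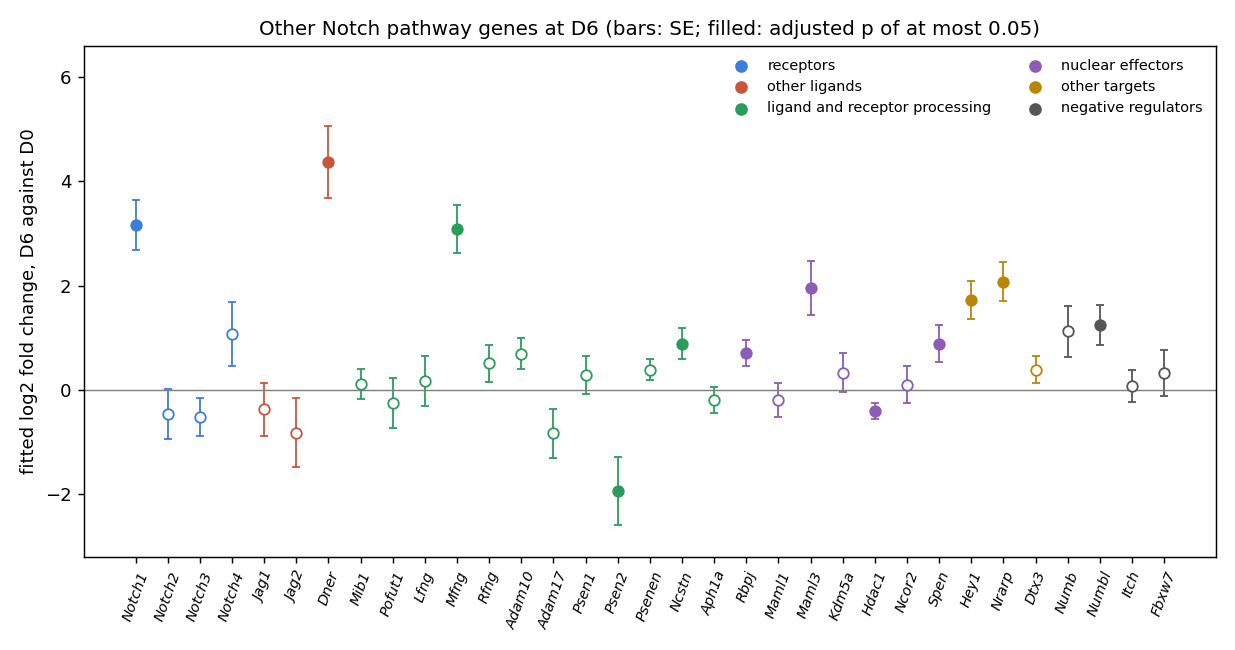
Fitted log2 fold change on D6 against D0 of the 33 tested Notch pathway genes other than Dll1, Dll3, Hes1, Hes5 and Hes6, coloured by role; bars are the SE and filled dots have an adjusted p of at most 0.05 by limma-voom. Of the 12 filled dots, 10 lie above 0, and the highest (Dner) has no read on D0, so that its value depends on the prior count.

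A second list held 34 other bHLH factors, their E protein partners and genes known as downstream of proneural factors, of which 30 had reads and 21 were tested. It too was chosen with earlier results of these data known, so its counts beside the shares of all genes are descriptions. On D2, 2 were called higher and 3 lower than on D0, on D4 12 and 1, and on D6 18 and 1, beside the shares of all tested genes given for the Notch list. The median log2 fold change on D6 was 2.67, and 2.17 with genes that lacked reads placed at their bound, where that of all tested genes was 0.017. For 6 of the 21 genes (Nhlh1, Bhlhe22, Ebf1, Ebf3, Myt1 and St18) the minimum of 30 reads was reached only through D6, which raises the D6 count and median. Of the other 15, 12 were higher and 1 lower on D6, with a median of 1.91, beside 18.0% and 19.9% and a median of -0.038 for all genes with at least 30 reads outside D6. Dcx, a microtubule protein of migrating neurons, had 0 reads on D0 and 132 on D6, at least 18.1-fold higher. The bHLH factor Nhlh1 was at least 7.62-fold higher, and the transcription factors St18 and Ebf3 at least 6.26-fold and 5.18-fold higher. Rnd2, a small GTPase of migrating neurons, fell by 0.53 ± 0.14 on the log2 scale (SE; limma-voom adjusted p = 0.00193), from 487 reads on D0 to 259 on D6. It was lower still on D4 (-2.42 ± 0.20, adjusted p = 1.54e-15).

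The bHLH factor Bhlhe22 had 0, 1 and 0 reads on D0 and 13, 21 and 14 on D6 (limma-voom adjusted p = 9.4e-09). Of the E proteins, Tcf4 and Tcf12 rose on D6 and Tcf3 had a log2 fold change of 0.05 (limma-voom adjusted p = 0.863). Atoh1, Neurod2, Neurod6 and Olig1 had no read. Dcx, Tubb3, Elavl4 and Stmn2 also stand in the list of neuronal markers.

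The reads also showed which RNA ends these genes used. Direct RNA reads start at the poly(A) tail, so the mapped end marks the polyadenylation site. For 7 genes the median read ended within 20 bases of the annotated end of the transcript. Dll3 and Neurod1 were the exceptions: of 80 reads on the main Dll3 transcript, 69 ended within 10 bases of a place 159 bases before the annotated end, and of 54 Neurod1 reads, 50 ended within 10 bases of a place 116 bases before it. At the annotated end, within 25 bases, lay 5 Dll3 reads and 1 Neurod1 read. This held at every day with reads, with 4 of 4, 11 of 12, 27 of 34 and 27 of 30 Dll3 reads at the earlier place on D0, D2, D4 and D6.

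The last 30 bases before the median read end are shown for each gene, because they carry the poly(A) signal, and capitals mark AATAAA. They lie in 3′ UTRs and come from the GENCODE vM21 transcripts on mm10. The windows are chr13:56250480-56250509 for Neurog1, chr3:127635601-127635630 for Neurog2, chr2:79452637-79452666 for Neurod1, chr10:130268152-130268181 for Neurod4, chr17:15367359-15367388 for Dll1, chr7:28293712-28293741 for Dll3, chr16:30067765-30067794 for Hes1, chr4:154962340-154962369 for Hes5 and chr1:91411503-91411532 for Hes6. The strand of each is that of its gene.
Neurog1: cgtgtaAATAAAaaaaaataagggaaaaaa
Neurog2: aagctataAATAAAgtatctaattttcata
Neurod1: ttgcAATAAAaatagtatggaaaatcaaaa
Neurod4: ccagtagcAATAAAgctttgagtgttatta
Dll1: aaatatttttccaaAATAAAtataatgaac
Dll3: atctataaaggttcttattttgctcaacca
Hes1: gagaaaatatAATAAAagagtgaaggcttt
Hes5: ctgaaggcttctAATAAAatatcaagccct
Hes6: aaccgaattaAATAAAgaactttggagtta

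AATAAA began 16 to 26 bases before the median read end in 8 of the 9 genes and was not found in the Dll3 window. Variants of this signal were not searched, so the Dll3 window is described for AATAAA only. At the annotated ends the last 30 bases hold AATAAA in 7 of the 9 genes, and in 35.5% of 58797 annotated protein-coding transcripts. The Hes6 reads ended 20 bases before the annotated end, whose own last 30 bases hold no AATAAA, as is also the case for Dll3. The annotated end of Neurod1, which 1 read used, does hold AATAAA. Reads covered a median of 95.5% of the main Hes6 transcript and 74.7% of Hes5, but 40.5% of Neurog1, 38.6% of Dll1 and 36.0% of Dll3, so the coding start was covered by 69.1% of reads for Hes6 and 3.1% for Dll1.

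Poly(A) tails were a readout that the choice of genes did not use. Over all genes the median tail was 110.0 nt on D0, 109.4 on D4 and 117.4 on D6. The part of this general shift in the differences below was not tested. Of the 9 genes, 6 had at least 5 reads in each D4 and D6 library, and limma on the median tails called 0 of them longer or shorter on D6 than on D4 (background 0.115% longer and 0% shorter of 5233 genes), with 2 of 6 at an unadjusted p under 0.05, as were 8.16% of all tested genes. The median tail of Dll1 was 159.4, 72.0 and 133.5 nt on D4 and 191.0, 169.5 and 125.2 nt on D6, a difference of 39.4 ± 18.8 nt (SE; limma adjusted p = 0.603), which was 15.1 nt without D4 replicate 2. Hes1 had 140.2, 127.2 and 115.4 nt on D4 and 103.8, 66.2 and 114.1 nt on D6, a difference of -33.0 ± 16.1 nt (adjusted p = 0.609). It was -13.8 nt without D6 replicate 2 and -5.02 nt with mean in place of median tails. Dll1 days overlapped, and each Hes1 library on D6 was below each on D4.

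Hes5, the gene with the most reads, had the smallest SE among the 6 genes, with median tails of 125.0, 105.7 and 107.0 nt on D4 and 117.4, 107.0 and 114.3 nt on D6. Its difference was 1.27 ± 6.33 nt (SE; limma adjusted p = 0.971). Dll3 had 67.3, 108.7 and 100.8 nt on D4 and 119.4, 148.6 and 118.5 nt on D6, and the days did not overlap. For Dll3 the difference was 37.5 ± 19.4 nt, for Neurog1 17.9 ± 11.8 nt and for Hes6 2.37 ± 12.8 nt, none of which passed. That of Dll3 was 22.3 nt without D6 replicate 2 and 20.3 nt with mean tails, and that of Neurog1 was 11.4 nt without D4 replicate 2. Tails shorter than 30 nt made up 13.0%, 15.9% and 12.1% of Hes5 reads on D4 and 12.5%, 17.7% and 13.2% on D6 (Wilson 95% intervals between 7.13% and 24.7%). In the other 8 genes they made up 0% to 11.4% of the D6 reads pooled over replicates, and this difference was not tested.

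Neurod4 stayed outside the tail test because D4 replicate 1 held 4 reads. Its median tail was 153.6, 141.2 and 152.3 nt on D4 and 109.3, 103.9 and 100.9 nt on D6, and the days did not overlap. Without D4 replicate 1 its difference was -42.0 ± 22.3 nt (SE; limma adjusted p = 0.68), and that of Neurod1, left out for the same reason, was 10.3 ± 24.5 nt (adjusted p = 0.957). Against D0, Hes1 and Hes6 could be tested, and 0 of these 2 passed (background 1.84% longer and 2.04% shorter of 5491 genes), with 1 of 2 at an unadjusted p under 0.05, as were 14.0% of all tested genes. Hes1 differed by -42.2 ± 16.5 nt (adjusted p = 0.185; -23.0 nt without D6 replicate 2 and -11.5 nt with mean tails) and Hes6 by -14.7 ± 17.3 nt (adjusted p = 0.782; SE, both by limma).

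**Figure D5:**
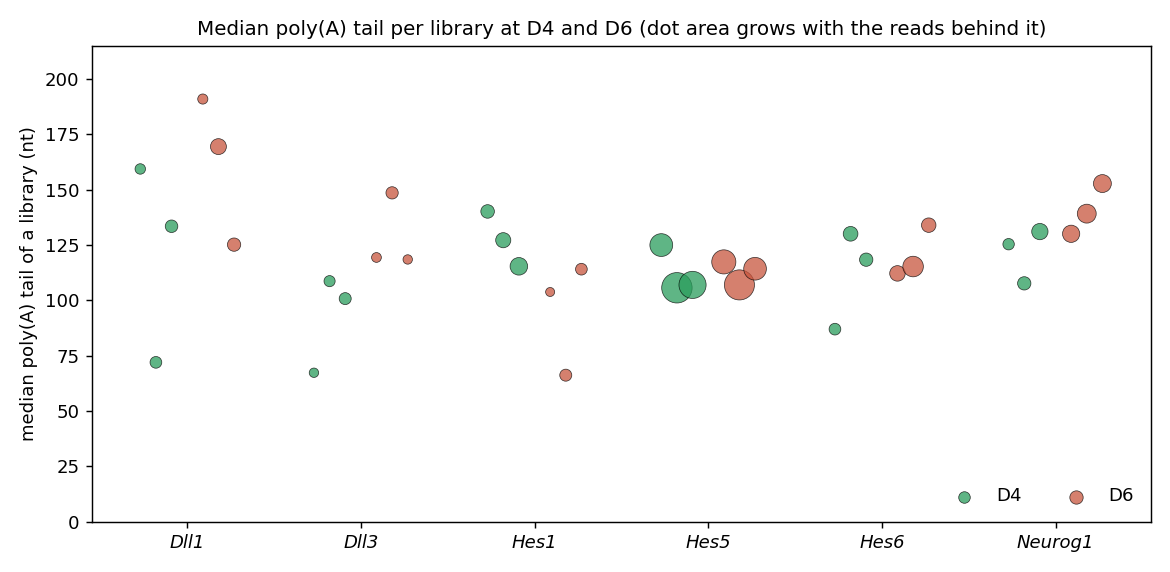
Median poly(A) tail (nt, axis from 0) of each library on D4 and D6 for the 6 genes with at least 5 reads in each of these libraries; each dot is a library and its area grows with its number of reads. Hes5 dots lie between 105.7 and 125.0 nt, Dll1 dots spread from 72.0 to 191.0 nt, and Hes1 dots on D6 are below those on D4.

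Likeness was described by Pearson correlation of log2(CPM + 1) over the 12 libraries, which share 4 days and 13 runs, against 4985 genes with a mean of at least 10 reads. Neurog1 was most like Hoxc4, Hoxb5 and Hoxb8 (r = 0.994 for each). Hes5 was most like Rarb (0.985), Dbx1 and Fndc5 (0.981 each), and Neurod4 like Cyp26b1 (0.975), Akt1 (0.97) and Msl1 (0.968). Dll3 was most like Meis2 (0.971), Fgfbp3 (0.967) and Tspan13 (0.965), and Dll1 like Rhbdl3 (0.981), Zfp358 (0.948) and Zadh2 (0.93). Hes6 was most like Mthfd2l (0.961), Ddx5 (0.956) and Eif1b (0.955), and Neurod1 like Gm1673 (0.96), Camk2n1 (0.958) and Zfp358 (0.947). Neurog2 was most like BC005537 (0.944), Kdm2b (0.92) and Cst3 (0.918), and Hes1 like Sdha (0.923), Caap1 (0.901) and Saal1 (0.876). Among the 9 genes, r was highest for Hes5 with Neurog1 (0.95) and lowest for Hes1 with Neurog2 (-0.585).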

How the data were processed

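Native RNA of 12 P19 libraries was measured. The authors used Guppy for base calling, Minimap2 2.20 for alignment to mm10 transcripts (GENCODE vM17), Nanopolish for tails and Deeplexicon for barcodes. Of the deposited per-read table, the authors' mapping quality is a score, the authors' barcode confidence is a fraction per read, and tail length is in nucleotides, not normalized. A further deposited table holds the authors' DESeq2 log2 fold changes and p-values and was not used.

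Of 6306434 lines, 69 were malformed and 289260 had no barcode. PASS reads of class mRNA, without mitochondrial transcripts and pseudogenes, gave 4274320 reads, tallied here per gene. Because these tallies are not a deposited count table, limma-voom (limma 3.58.1, R 4.3.3) was fitted to the 12 libraries with trimmed-mean scaling (30% and 5% trimmed) and a prior count of 0.5, for genes with at least 30 reads, with Benjamini-Hochberg adjustment and a threshold of 0.05. Median tails were fitted by limma with weights by reads, for genes with at least 5 reads in each library. A fold against 0 reads used a floor of 3 reads per library, and ratios with 1 to 3 reads on a day carry exact counting intervals. Exact permutation tests are two-sided. Intervals and floors cover counting error only. The 3 libraries of a day are labelled biological replicates.

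Alternatives changed scaling, filters, read quality, mapping quality, barcode confidence, depth, runs, the model and single libraries. The steps were tested on simulated data. Genes named from the lists are the 4 with the largest change in each direction at D6 among those called, and the 3 most alike for each of the 9 genes; Bhlhe22, Hey1, Maml3, Tcf3, Tcf4, Tcf12, the other receptors and genes without reads were named after their values were seen. The 9 genes and the lists were chosen with earlier results of these data known. Python 3.11.15, numpy 2.4.6, pandas 2.3.3, scipy 1.17.1 and matplotlib 3.10.9 were used.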

Additional observations from a re-analysis of the deposited data

How the results depend on the processing

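All 8 genes called on D6 against D0 kept their direction and call in every alternative in which they were tested. Over all comparisons, 1113 of the values for single genes under an alternative kept their direction and side of the threshold, 32 lost the call, 7 gained it and 20 changed sign. With the libraries thinned to the smallest, 6 of the 9 genes were tested and the counts of called genes fell to 1 on D2, 2 on D4, 6 (5 higher and Hes1 lower) on D6, 0 for D4 against D2 and 2 for D6 against D4, those of the Notch list to 0, 0 and 4, and those of the bHLH list to 2, 6 and 9 (D2, D4 and D6). Uncalled log2 fold changes turned to -0.073 (Dll1, D4 against D2), 1.05 (Dll3, D6 against D4) and -0.024 (Hes1, D4 against D2). Where an average of 10 reads per library was required, 5 genes were tested and 3, 5 and 4 called on D2, D4 and D6 and 3 for D6 against D4, with 1 and 5 of the Notch list on D2 and D4 and 8 and 12 of the bHLH list on D4 and D6. Limma-trend called 0 genes for D4 against D2, 1 for D6 against D4, and 3 and 5 of the Notch list on D4 and D6. A mapping quality of at least 10 left 6 Notch list calls on D6 and 8 and 11 bHLH list calls on D4 and D6, and turned Neurog2 on D4 against D0 to -0.071 and the Hes6 tail on D6 against D4 to -10.5 nt. All quality tags gave 2 calls for D4 against D2, and no filter gave 11 bHLH list calls on D2. Without the D6 runs that name no day, D6 against D4 had 3 calls and the Notch list 7 on D6, and Neurod1 on D6 against D4 was -0.12. A barcode confidence of at least 0.9 gave -0.012 for Hes1 on D4 against D2.

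Leaving out single libraries gave 4 to 5 called genes on D2, 7 to 8 on D4, 8 to 9 on D6, 1 to 2 for D4 against D2 and 4 to 5 for D6 against D4, with 1 to 3, 3 to 9 and 6 to 12 calls of the Notch list and 5 to 6, 11 to 13 and 15 to 19 of the bHLH list. The log2 fold changes that turned sign ranged from -0.024 to 0.25 (Dll1, D4 against D2), -0.42 to 0.004 (Dll3, D6 against D4), -0.079 to 0.239 (Hes1, D4 against D2), -0.31 to 0.42 (Neurog2, D4 against D0) and -0.048 to 0.75 (Neurod1, D6 against D4). Tail differences ranged from -2.48 to 5.5 nt (Hes5, D6 against D4), -6.49 to 13.1 nt (Hes6, D6 against D4) and -24.5 to 1.5 nt (Hes6, D6 against D0). The cause of these changes was not tested.

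Replicate numbers did not pair the libraries: 1 of 18 same-number pairs had a correlation over 0.1 (range -0.107 to 0.103), and 0 of the 12 libraries correlated best with their own number on every other day. With a replicate block, 6, 7 and 8 genes were called on D2, D4 and D6, 1 for D4 against D2 and 4 for D6 against D4: Neurod1 on D2 passed (limma-voom adjusted p = 0.0467), and Hes1 on D4 against D0 and Hes6 on D6 against D4 did not (0.0601 each). For tails on D6 against D0, a minimum of 10 reads in every library left none of the 9 genes to test. The D2 libraries were the shallowest, which limits what could be detected on D2.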
